A study of Sus scrofa with 18 samples.

Results

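Collagen genes were taken as every row of the count table whose symbol has the form COL, a number, A and a number, which gave 43 genes of 29884. By the structure of the chains they comprised 11 fibrillar collagens, 8 basement membrane collagens, 4 beaded filament collagens, 10 fibril-associated collagens with interrupted helices (FACIT), 3 short chain collagens, 4 transmembrane collagens and 3 anchoring or other collagens. RNA was sequenced from subcutaneous fat (SAF), cut from the back near the last ribs, and from visceral fat (VAF), cut beside the kidney, of male Bama pigs, a Chinese miniature breed, with 3 pigs at each of 1, 3 and 6 months. All pigs had 1 sire, were raised alike and were fasted before slaughter. No group carried a treatment or an engineered allele, and different pigs were used at each age, so the ages are not repeated measures of 1 animal. Each of the 6 groups had 3 libraries (SAF1, SAF3, SAF6, VAF1, VAF3 and VAF6, the number being the age in months, followed by the replicate). The titles and the library names of 4 VAF samples gave different ages or numbers, and the library names, which are also the column names of the table, were followed. By title VAF3-3 is a 6 month library, VAF6 replicate 3, and VAF6-1 is a 3 month library, VAF3 replicate 3. VAF6-2 and VAF6-3 are titled VAF6 replicates 1 and 2. Results that turn on VAF3-3 thus rest on a library whose age is in dispute. The study left VAF6-3 out of its comparisons, and the library of that name was kept out of every test here unless stated. VAF6 thus has 2 libraries in the tests, and the level of VAF6-3 is given beside results where it differs. By title the third VAF6 library is VAF3-3, so the fit with groups by title and age left out VAF3-3 and kept VAF6-3. Which of these the study left out cannot be told from the labels. Replicates of a group are separate pigs, and the labels do not say that a number marks the same pig in both depots.

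Collagens are secreted proteins in which 3 alpha chains wind into a triple helix, and together they make up most of the extracellular matrix. Fibrillar collagens (types I, III and V above all) form the fibres between cells, type IV forms the sheet-like basement membrane that surrounds each adipocyte and each capillary, and type VI forms beaded filaments that link the basement membrane to the fibres. In fat, fibroblasts and progenitors make most of the fibrillar collagen, while adipocytes and endothelial cells also make type IV. The chains of a type are encoded by separate genes, some of them arranged head to head, and are combined in fixed numbers in the assembled molecule.

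A gene pair transcribed from 1 shared region and a chain of type I, all among the abundant collagens, are shown by the sequence before their first exons (Sscrofa11.1, RefSeq gene models, plus strand, capitals marking a match on either strand). The motifs searched were the CCAAT box, spelled CCAAT, the GC box, spelled GGGCGG, and the TATA box, spelled TATAAA, and no matches overlap. COL4A1 lies on chr11:76858332-76997409 on the minus strand and COL4A2 on chr11:76996885-77161617 on the plus strand, so that the pair is transcribed in opposite directions from 1 region. The first line gives chr11:76997410-76997542, between the start of COL4A1 and the start of the shorter transcript of COL4A2, and it also lies in the first intron of the longer COL4A2 transcript. The second gives the 250 bases before COL1A2, chr9:74174234-74174483.
COL4A1 and COL4A2: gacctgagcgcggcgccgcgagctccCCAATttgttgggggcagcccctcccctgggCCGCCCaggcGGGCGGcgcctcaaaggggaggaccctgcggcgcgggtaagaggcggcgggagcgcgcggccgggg
COL1A2: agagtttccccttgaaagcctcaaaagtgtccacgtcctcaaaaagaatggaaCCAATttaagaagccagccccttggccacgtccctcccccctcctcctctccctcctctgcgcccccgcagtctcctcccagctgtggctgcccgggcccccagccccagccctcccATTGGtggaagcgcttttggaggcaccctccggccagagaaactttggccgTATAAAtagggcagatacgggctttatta
The region of COL4A1 and COL4A2 was 78.9% G and C and held 1 CCAAT and 2 GGGCGG matches, which 21.4% and 37.8% of 20643 gene starts held at least once in a window of the same 133 bases. The window of COL1A2 was 58.8% G and C, with 2 CCAAT matches and a TATAAA match that began 29 bases before the gene. In windows of 250 bases, 32% of 20641 gene starts held CCAAT and 10.4% held TATAAA. A match of this kind is a description of the sequence, not a binding site.

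The libraries held between 16404239 and 22857354 counts. Levels are given as CPM, the count per 1000000 counts of the library after scaling of library sizes by TMM, and levels of different genes are compared only as CPM per kilobase of exon. Some libraries stood apart. VAF3-1 and VAF3-2 held genes of the urothelium, the lining of the urinary tract, at a summed 1418.9 and 539 CPM over 5 markers, where the other 16 libraries held 0.312 to 5.05 CPM. Nearly all of this was UPK1A, UPK1B, UPK2 and UPK3A, while KRT5 was at 1.43 and 0.661 CPM there and highest in SAF3-3, at 2.58 CPM. VAF3-1 and VAF3-2 held 8369.4 and 7716.4 CPM over 6 smooth muscle markers, against 298 to 1228.4 CPM elsewhere. They had the lowest sums of 7 adipocyte markers, 5333.6 and 4581.2 CPM, against 10346 to 19437.5 CPM elsewhere. They also held 509 and 319 CPM over 4 mesothelial markers, against 0.65 to 24.7 CPM elsewhere. Of this sum KRT19 alone held 503 and 309 CPM. WT1 was at 4.7 and 8.85 CPM in VAF3-1 and VAF3-2, below the 22.1 CPM of VAF6-3. UPK3B and LRRN4 reached at most 0.845 and 0.126 CPM in any library, so the sum does not show mesothelium. In SAF6-3 and VAF6-3 the 10 most abundant genes of the table took 6.5% and 5.19% of the counts, against 8.66% to 18.7% elsewhere, and VAF6-3 had the highest sums of macrophage and leukocyte and of fibroblast and progenitor markers, 950 and 2920.1 CPM. Most of these sums was CD163 at 817 CPM and PI16 at 1906 CPM. PDGFRA was also highest in VAF6-3, at 265 CPM, while every other marker of both lists was higher in another library. In tissue samples, fewer cells of a type and less RNA per cell cannot be told apart.

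Collagen genes took between 1.55% (SAF6-3) and 10.2% (SAF1-2) of a library's counts. The share was 5.87%, 10.2% and 6.56% in the SAF1 libraries, 5.11%, 6.58% and 6.02% in SAF3, and 3.98%, 5.42% and 1.55% in SAF6. In VAF it was 8.96%, 3.55% and 4.12% at 1 month, 2.37%, 4.62% and 4.29% at 3 months, and 2.82% and 2.28% at 6 months. The group means were 7.54% ± 2.33, 5.9% ± 0.742 and 3.65% ± 1.96 in SAF (SD, n = 3) and 5.54% ± 2.97, 3.76% ± 1.22 (SD, n = 3) and 2.55% ± 0.382 (SD, n = 2) in VAF. The mean was lower at each later age in both depots and lower in VAF than in SAF at each age, while the libraries of neighbouring groups overlapped except at 3 months, where every SAF library was above every VAF library. No test was made of this sum.

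**Figure D1:**
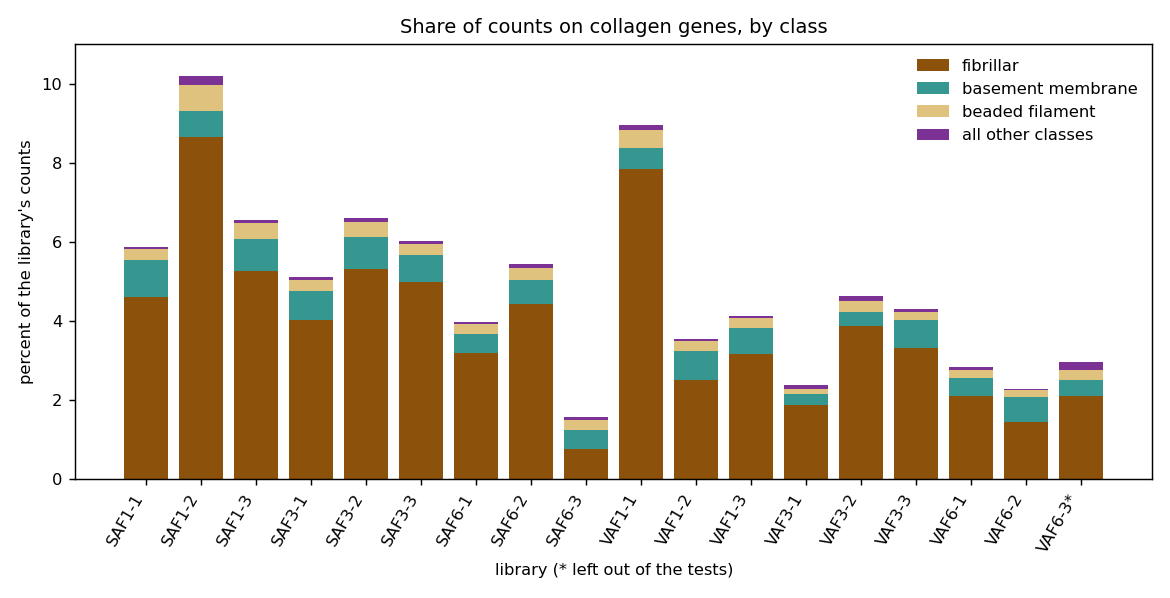
Share of each library's counts on collagen genes (vertical axis, percent) for the 18 libraries (horizontal axis), stacked by class. Fibrillar collagens make up the largest part of the bar in every library, and the total runs from 1.55% in SAF6-3 to 10.2% in SAF1-2.

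The 3 chains of types I and III made up most of this. COL1A1, COL1A2 and COL3A1 held 43.2% to 83.3% of all collagen counts of a library, and COL3A1 and COL1A1 were the genes ranked 2 and 9 by share of counts over the whole table. Per kilobase of exon, the median over 18 libraries was 3565.9 for COL3A1, 1386.4 for COL1A1, 1380.9 for COL1A2, 490 for COL4A1, 331 for COL4A2 and 310 for COL6A2. COL5A2, COL15A1, COL5A3, COL6A3 and COL5A1 followed, with medians from 93.6 to 224. The order of COL1A1 and COL1A2 was within their spread, as was that of COL4A2 and COL6A2. At the other end, 15 genes had a median below 0.5 per kilobase, and COL10A1, the collagen of hypertrophic cartilage, had at most 3 counts in any library and was not tested. The other 42 genes passed the filter on low counts and were tested among 16664 genes.

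Basement membrane collagens were 5.8% to 30.9% of the collagen counts. Their part was largest in SAF6-3 and VAF6-2 (30.9% and 27.8%), where COL1A1, COL1A2 and COL3A1 took 43.2% and 51.2% of the collagen counts, and smallest in VAF1-1 (5.8%), where these took 83.3%. The parts add up to a whole, so a large part of one class leaves less for the others. COL1A1 spanned 12.8-fold over the libraries and COL1A2 14.6-fold, but the ratio of the 2 per kilobase stayed between 0.883 and 1.44 with a median of 1.06. COL4A1 and COL4A2 spanned 4.4-fold and 3.86-fold, and their ratio stayed between 1.09 and 1.55 with a median of 1.39. These 2 pairs are the chains that assemble together, in the usual molecule with a second copy of COL1A1 and of COL4A1. Other chains that assemble together had wider ratios: COL5A1 to COL5A2 ran from 0.224 to 0.651, COL6A3 to COL6A2 from 0.255 to 0.904 and COL4A3 to COL4A4 from 0.0412 to 1.06. The ratio of COL3A1 to COL1A1, which form separate molecules, ran from 1.18 to 4.85. In these ratios the lengths are those of the reference exons, so the distance of a ratio from 1 also depends on which exons are transcribed.

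At 1 month, levels of the fibrillar chains overlapped between the depots for COL1A1, the major chain of type I. It had 7590, 26672 and 9946 CPM in the SAF1 libraries and 22837, 4224 and 4914 CPM in VAF1. At 3 months it had 9435, 14107 and 15868 CPM in SAF and 4232, 13820 and 5697 CPM in VAF, and at 6 months 10512, 12527 and 2083 CPM in SAF and 5891 and 2341 CPM in VAF. The depots overlapped at every age, with 1 SAF library and 1 VAF library at 1 month far above the others and SAF6-3 far below the other SAF6 libraries. The difference SAF minus VAF was 0.46 ± 0.77, 0.73 ± 0.77 and 1.00 ± 0.88 on the log2 scale at 1, 3 and 6 months (edgeR estimate ± SE), with adjusted p of 0.914, 0.649 and 0.695. COL1A2, the other type I chain, went with it at 0.68, 0.82 and 1.07 (SE 0.72 to 0.84).

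COL3A1, the single chain of type III, which forms thin fibres with type I, spanned 16.9-fold over the libraries. It had 26191, 32677 and 28020 CPM in SAF1, 23198, 27176 and 24842 CPM in SAF3, and 16695, 22891 and 2081 CPM in SAF6. In VAF it had 35255, 12374 and 16602 CPM at 1 month, 8127, 12717 and 17310 CPM at 3 months, and 10495 and 8806 CPM at 6 months. At 3 months every SAF library was above every VAF library, and in SAF every 6 month library was below every 3 month library. The depot difference at 3 months was 0.98 ± 0.62 in log2 with adjusted p = 0.42 by edgeR, whereas DESeq2 on the 2 groups alone gave 0.97 ± 0.321 with adjusted p = 0.046.

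COL5A1, COL5A2 and COL5A3 encode type V, which sits inside type I fibres and limits their width. COL5A2 had 2641, 2431 and 2748 CPM in SAF1 and 2025, 1482 and 1506 CPM in SAF3, without overlap, and 1262, 1596 and 372 CPM in SAF6. In VAF it had 1781, 1494 and 2222 CPM at 1 month, 569, 702 and 1268 CPM at 3 months, and 1024 and 1130 CPM at 6 months. The lowest values of each depot were thus at 6 months in SAF and at 3 months in VAF. SAF at 6 against 1 month differed by -1.28 ± 0.42 in log2 (edgeR, adjusted p = 0.188) and VAF at 3 against 1 month by -1.13 ± 0.41 (adjusted p = 0.198). COL5A3 moved alike, with means of 1895 ± 387, 1277 ± 223 and 700 ± 412 CPM in SAF and 1486 ± 167, 724 ± 628 (SD, n = 3) and 1076 ± 183 CPM (SD, n = 2) in VAF. COL5A1 ran from 148 to 804 CPM over all libraries, with the same order of ages.

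**Figure D2:**
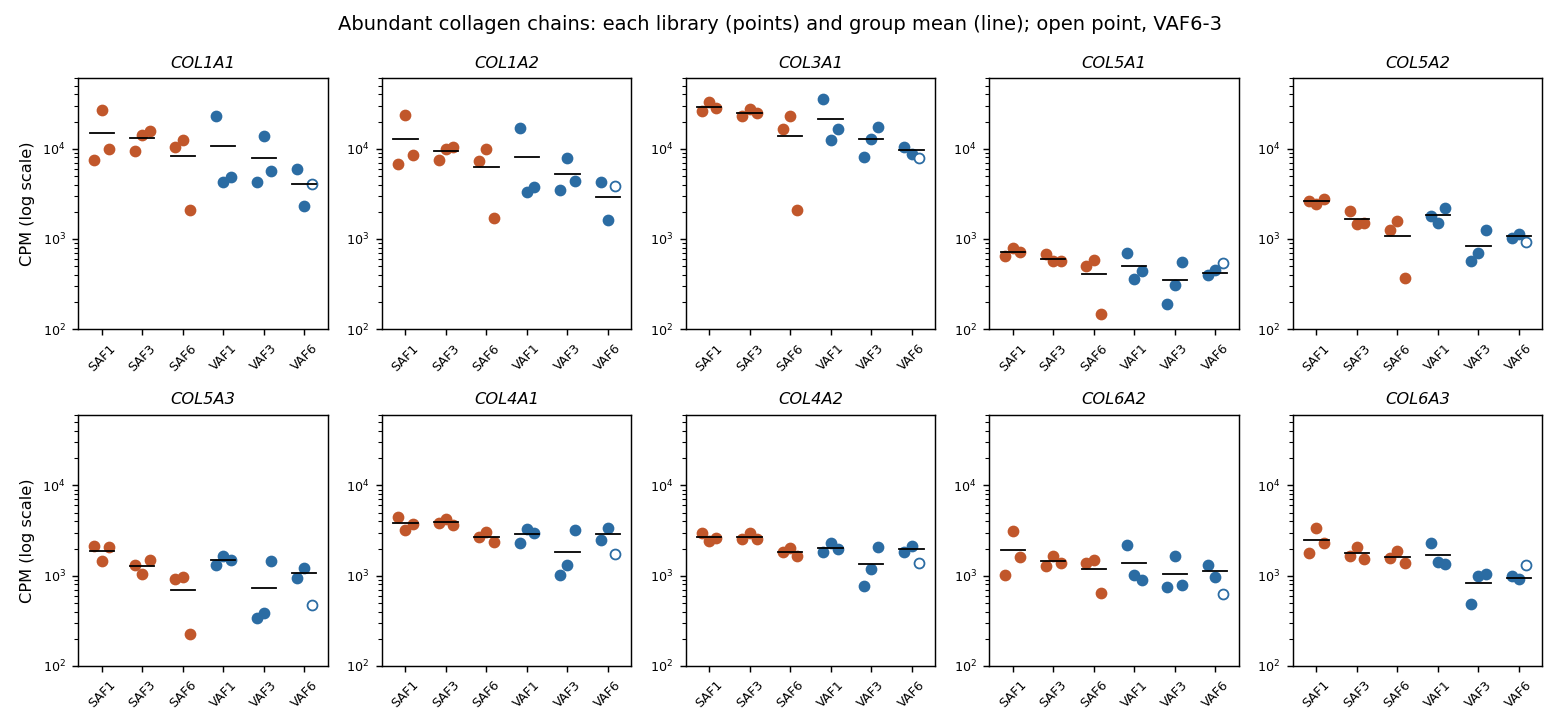
CPM on a log axis (vertical) of 10 abundant chains in each library (points) of the 6 groups (horizontal), with the group mean as a line and VAF6-3, which is not in the mean, as an open point. SAF6-3 lies below the other SAF6 libraries for types I, III and V, and VAF3-1 and VAF3-2 lie below VAF3-3 for COL4A1, COL4A2, COL5A2 and COL5A3.

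Of the 42 genes tested, most had a higher estimate in SAF than in VAF, but few differences passed the test, which asked for an adjusted p under 0.05 and an absolute difference above 1.5-fold. At 1 month 33 genes were higher in SAF and 9 in VAF, with a median difference of 0.42 in log2 against -0.01 over all genes tested. At 3 months the numbers were 27 and 15 with a median of 0.75 (0.00 over all genes), and at 6 months 25 and 17 with a median of 0.18 (0.00 over all genes). All 11 fibrillar genes were higher in SAF at 1 and at 3 months, with medians of 0.50 and 0.83, and 7 of 11 at 6 months, with a median of 1.00. Of the 8 basement membrane genes, 6, 6 and 3 were higher in SAF at the 3 ages, with medians of 0.26, 1.01 and -0.10. The count and the median describe these libraries, since genes of 1 tissue sample are not independent.

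By edgeR no collagen gene passed between the depots at 1 month, where 0% of all genes tested did, 2 passed at 3 months, both higher in VAF (2.73% of all genes passed, 2.32% being higher in VAF), and 0 passed at 6 months (0.012%). Without the correction, 6, 15 and 6 of the 42 collagen genes had p under 0.05 at the 3 ages, as did 1041, 3000 and 1689 of the 16664 genes tested. The 2 that passed at 3 months were COL4A6 and COL17A1. DESeq2 on the compared groups alone called 0 collagen genes at 1 month (1.18% of all genes), 9 at 3 months (5.78%), of which 6 were higher in SAF (1.26%) and 3 in VAF (4.53%), and 5 at 6 months (1.12%), all higher in SAF (0.497%), while edgeR on the same libraries called 0 at every age. At 3 months the DESeq2 calls higher in SAF were COL3A1, COL6A3, COL6A6, COL11A1, COL12A1 and COL28A1, those higher in VAF COL4A5, COL4A6 and COL17A1, and at 6 months COL6A6, COL8A1, COL11A1, COL11A2 and COL12A1 were called. Without overlap between the libraries, 4 genes were higher in SAF at 1 month (8.29% of all genes tested were), 11 at 3 months (7.85%) and 10 at 6 months (14%), and 1, 2 and 0 were higher in VAF (8.47%, 8.27% and 13.4%). With VAF3-1 and VAF3-2 left out, VAF3 is the single library VAF3-3, which is assumed to vary like the other groups, and 5 of 17075 genes passed at 3 months by edgeR, none of them a collagen gene. The median over 41 genes was 0.41 and that of the basement membrane genes 0.06, while that of the fibrillar genes was 1.10.

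**Figure D3:**
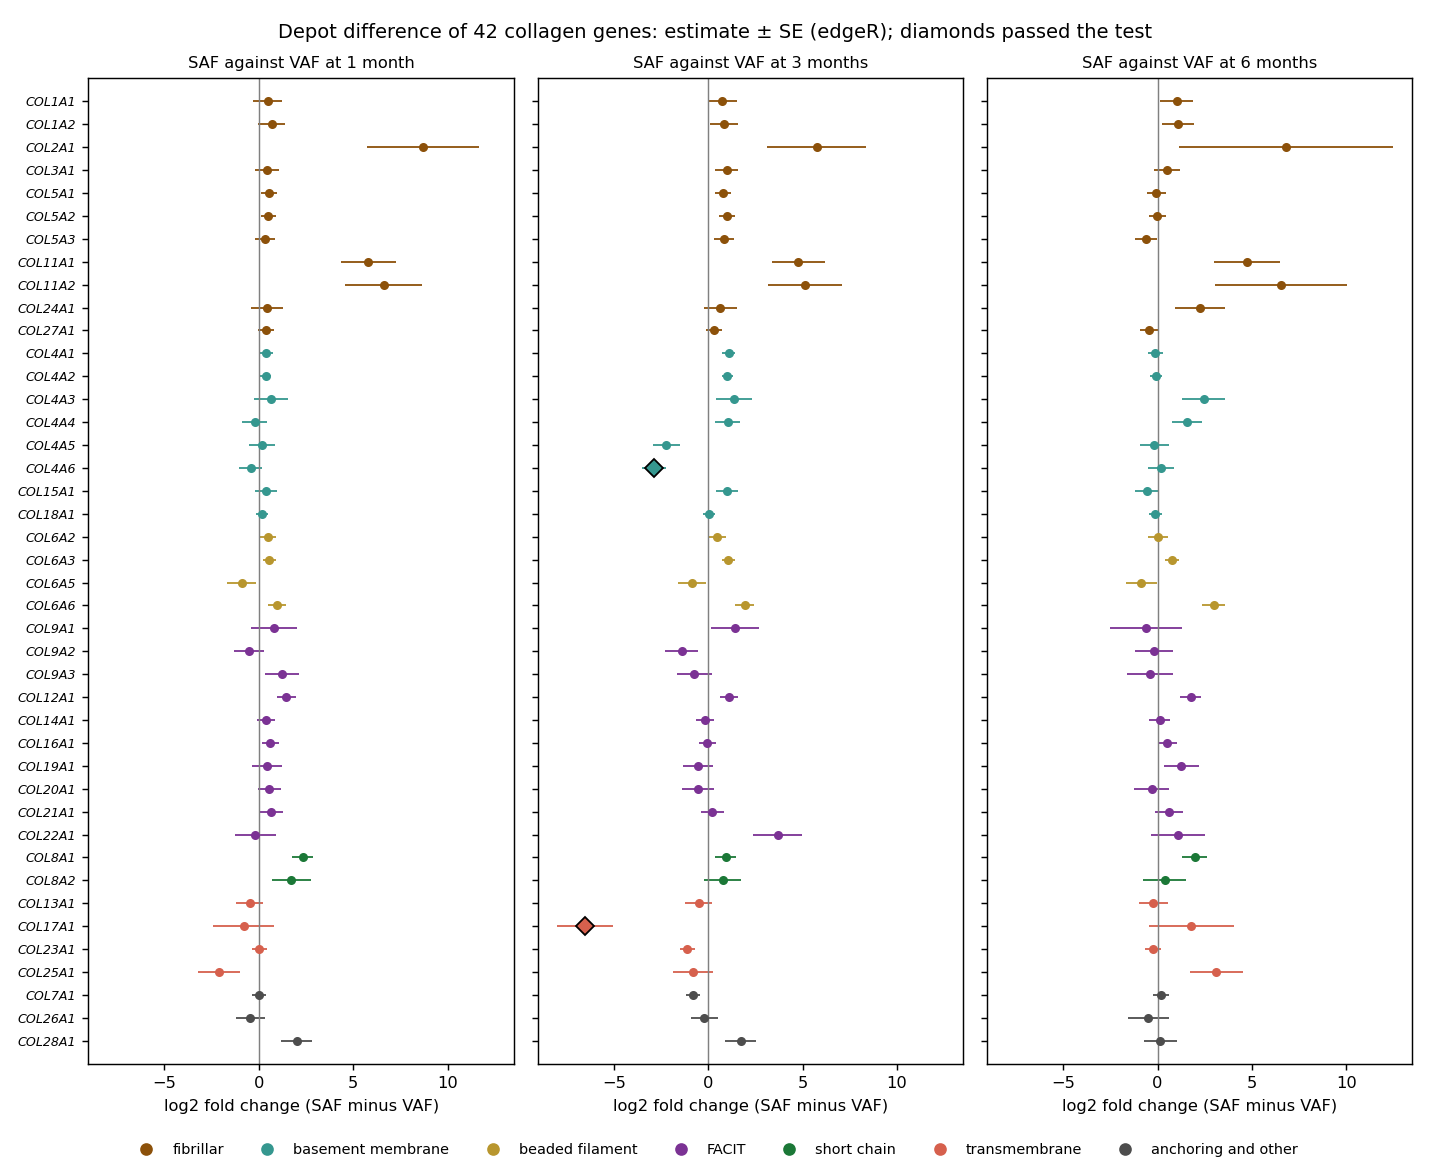
Difference SAF minus VAF of 42 collagen genes in log2 (horizontal, edgeR estimate with its SE as a bar) at 1, 3 and 6 months, coloured by class and listed by class and number (vertical). Diamonds mark the 2 genes that passed the test, COL4A6 at -2.85 and COL17A1 at -6.51, both at 3 months, while COL2A1, COL11A1 and COL11A2 lie far to the right with wide bars. COL2A1 at 6 months is set against 2 VAF libraries with 0 counts, so its position there gives no size.

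The largest depot differences among fibrillar genes were those of types II and XI, the thin fibres known best from cartilage, with type XI also present in fibres of other tissues. COL11A1 (chr4:115638381-115841679, plus strand) had 40, 3252 and 117 counts in SAF1, 154, 70 and 1195 in SAF3, and 175, 494 and 207 in SAF6, but 16, 32 and 19 in VAF1, 11, 10 and 38 in VAF3, and 10 and 10 in VAF6. Every SAF library was above every VAF library over all ages, also with the 33 counts of VAF6-3. In CPM the SAF libraries ran from 2.2 to 166 and the VAF libraries from 0.508 to 1.6. The depot difference was 5.79 ± 1.45, 4.77 ± 1.40 and 4.75 ± 1.75 in log2 at the 3 ages, with adjusted p of 0.387, 0.0841 and 0.431 by edgeR. DESeq2 gave 4.77 ± 0.84 at 3 months (adjusted p = 4.29e-06) and 4.77 ± 0.617 at 6 months (adjusted p = 4.15e-11). Without SAF1-2 and SAF3-3, its highest libraries, the edgeR difference was 2.00 ± 0.612 at 1 month and 2.84 ± 0.619 at 3 months. Reads of 3 uncharacterised genes that overlap COL11A1, 2 of them on the other strand, could have been counted with it or set aside.

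COL11A2 and COL2A1 were high in the same libraries. COL11A2 (chr7:25204496-25234880, minus strand) had 3422 counts in SAF1-2 and 938 in SAF3-3, and 3 to 93 in the other SAF libraries, against 0 to 32 in all VAF libraries. COL2A1, the chain of type II, had 1645 counts in SAF1-2 and 415 in SAF3-3, 32 in SAF6-2 and at most 7 in any other library, with 0 in both VAF6 libraries of the test. High counts of COL2A1 and COL11A2 were thus seen in a few SAF libraries, and the depots overlapped for COL2A1 at 1 and 3 months and for COL11A2 at 1 month. COL11A2 differed by 5.11 ± 1.96 in log2 at 3 months (edgeR, adjusted p = 0.179). Without SAF1-2 and SAF3-3 no collagen gene passed between the depots at any age, and of all 16573 genes tested 2 passed at 3 months and 0 at 1 and 6 months. Of 4 cartilage markers, ACAN reached 3.93 CPM in SAF1-2 and 1.39 CPM in SAF3-3 and at most 1.07 CPM elsewhere, and CNMD, MATN3 and HAPLN1 were at 0.0516 to 1.53 CPM in these 2 libraries. The sum of the 4 was 6.23 and 2.27 CPM in SAF1-2 and SAF3-3 and 0.305 to 5.76 CPM elsewhere, and the part of cartilage cells in this result was not tested.

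Among the basement membrane collagens, COL4A1 and COL4A2 encode the chains of the form found around nearly all cells. COL4A1 had 4467, 3189 and 3769 CPM in SAF1, 3882, 4214 and 3640 CPM in SAF3, and 2668, 3074 and 2337 CPM in SAF6. In VAF it had 2315, 3314 and 2976 CPM at 1 month, 1016, 1314 and 3219 CPM at 3 months, and 2456 and 3352 CPM at 6 months. The 2 lowest values of the 18 libraries were thus those of VAF3-1 and VAF3-2, the libraries low in adipocyte markers, and VAF3-3 lay in the range of the other VAF libraries. The depot difference at 3 months was 1.09 ± 0.36 in log2 for COL4A1 (edgeR, adjusted p = 0.116) and 1.01 ± 0.29 for COL4A2 (adjusted p = 0.0793). It passed by edgeR for both when VAF3-3 was left out, at 1.72 ± 0.28 and 1.43 ± 0.255 (adjusted p = 0.00116 and 0.00205), when 2948 of 16591 genes over the whole table passed. It was 0.30 ± 0.339 and 0.39 ± 0.29 against VAF3-3 alone (n = 1), the SE resting on the spread of the other groups. In SAF, COL4A1 and COL4A2 were lower in every 6 month library than in any 3 month or 1 month library. The 2 gene models overlap at their starts, and whether counting used the strand is not given in the sources used here.

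COL4A5 and COL4A6 encode the chains of a form found in smooth muscle and in the basement membrane of epithelia, and lie head to head on chromosome X, 207898 bases apart. COL4A6 (chrX:88634925-88750938, minus strand) had 2.85, 7.73 and 5.37 CPM in SAF3 and 44.9, 59.8 and 10.3 CPM in VAF3. All VAF3 libraries were above all SAF3 libraries, but the 10.3 CPM of VAF3-3 lay within the range of the other 15 libraries, 2.08 to 13.8 CPM. The difference SAF minus VAF was -2.85 ± 0.641 in log2 with adjusted p = 0.0306 by edgeR and -2.87 ± 0.602 with adjusted p = 0.00021 by DESeq2. COL4A5 had 23, 14.1 and 11 CPM in SAF3 and 92.7, 112 and 20 CPM in VAF3, overlapping through VAF3-3, and differed by -2.23 ± 0.713 (edgeR, adjusted p = 0.107). At 1 month COL4A5 had 97.3, 47.8 and 47.8 CPM in SAF and 69.1, 63 and 38.6 CPM in VAF, so SAF was lower at 3 months than at 1 month without overlap, by -2.00 ± 0.708 (edgeR, adjusted p = 0.489, and adjusted p = 9.49e-06 by DESeq2). The ratio of COL4A5 to COL4A6 per kilobase ran from 1.55 to 9.09, far wider than that of COL4A1 to COL4A2.

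The 2 high libraries of COL4A6 were those high in smooth muscle and urothelial markers, while COL4A5 was also high in SAF1-1, at 97.3 CPM, where these markers summed to 652 and 0.661 CPM. ACTG2 and DES, genes of visceral smooth muscle, were at 1343 and 1054 CPM and at 772 and 715 CPM in VAF3-1 and VAF3-2 and at most 31.3 and 35.7 CPM in any other library. Against VAF3-3 alone, with the spread taken from the other groups, the difference of COL4A6 at 3 months was -0.93 ± 0.685 in log2 (edgeR, adjusted p = 0.995) and that of COL4A5 -0.30 ± 0.852. Their part in the result beyond this was not tested. COL4A3 and COL4A4, the chains of the form known from the kidney glomerulus, went the other way in the same libraries, with COL4A3 at 1 count in each of VAF3-1 and VAF3-2 and 9 to 142 counts in the other 16 libraries. COL4A4 was at 0.317 and 1.42 CPM there and 1.71 to 16.2 CPM elsewhere. COL15A1 and COL18A1, whose chains carry heparan or chondroitin sulfate sugars, completed the class, and COL15A1 was at 403 and 350 CPM in VAF3-1 and VAF3-2, 127 and 311 CPM in SAF6-3 and VAF6-3, and 758 to 1508 CPM in all others.

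COL17A1, a transmembrane collagen that anchors epithelial cells to the basement membrane, was the collagen gene with the largest difference that passed the test. It (chr14:114959404-115007734, minus strand) had 1175 counts in VAF3-1 and 97 in VAF3-2, but 3 in VAF3-3, and 0 to 9 in the other 15 libraries. The VAF3 libraries overlapped those of SAF3, which had 2, 2 and 9 counts. The difference SAF minus VAF at 3 months was -6.51 ± 1.49 in log2 (edgeR, adjusted p = 0.0326), and VAF was higher at 3 than at 1 month by 6.45 ± 1.47 (adjusted p = 0.0434), where 1.67% of all genes passed, 1.16% being higher at 3 months. The order of the 2 high libraries was that of the urothelial markers, with UPK1A, UPK2, UPK1B and UPK3A, the defining membrane proteins of urothelium, at 278 to 447 CPM in VAF3-1 and 36 to 214 CPM in VAF3-2, and UPK1A and UPK2 at most 0.294 CPM in every other library. COL17A1 did not pass the filter on low counts without VAF3-1 or without VAF3-2, so both results rest on these libraries. Leaving out each of the 17 libraries in turn, the rise in VAF kept its call without SAF6-3 and without VAF3-3 and lost it or could not be tested otherwise. Other transmembrane collagens were COL13A1, COL23A1 and COL25A1, at 0.709 to 11.9, 2.84 to 13.9 and 0.0587 to 5.91 CPM, of which COL23A1 was also highest in VAF3-1 and was higher in every VAF3 than in every SAF3 library.

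**Figure D4:**
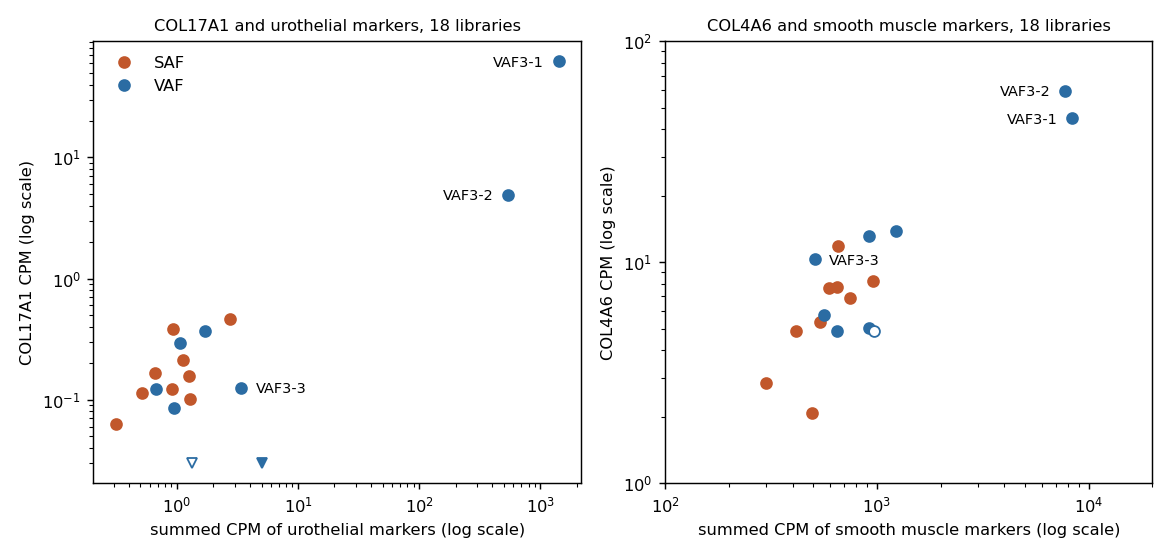
CPM of COL17A1 against the summed CPM of 5 urothelial markers (left) and of COL4A6 against the summed CPM of 6 smooth muscle markers (right) in 18 libraries, on log axes. SAF is orange and VAF blue, the open symbol is VAF6-3 and triangles mark 0 counts. VAF3-1 and VAF3-2 lie apart from the other 16 libraries on both axes of both panels, and VAF3-3 lies among them.

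Type VI, the beaded filament collagen, was covered by COL6A2, COL6A3, COL6A5 and COL6A6, with COL6A1 not analysed here. COL6A3, the long chain that also releases the fragment endotrophin, had 1800, 3374 and 2328 CPM in SAF1, 1659, 2082 and 1546 CPM in SAF3, and 1574, 1876 and 1396 CPM in SAF6. In VAF it had 2303, 1410 and 1346 CPM at 1 month, 483, 998 and 1038 CPM at 3 months, and 985 and 923 CPM at 6 months. SAF was above VAF in every library at 3 and at 6 months, and in VAF the 1 month libraries were above all later ones. The depot difference was 1.07 ± 0.324 in log2 at 3 months (edgeR, adjusted p = 0.0913, and adjusted p = 0.0453 by DESeq2) and 0.75 ± 0.37 at 6 months (edgeR, adjusted p = 0.515). COL6A2 had means of 1906 ± 1077, 1443 ± 195 and 1175 ± 459 CPM in SAF and 1380 ± 723, 1056 ± 505 (SD, n = 3) and 1137 ± 236 CPM (SD, n = 2) in VAF, and no depot difference above 0.45 in log2.

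COL6A5 and COL6A6, which encode alternatives to the COL6A3 chain and lie beside each other on chromosome 13, were chosen after their values had been seen. COL6A6 had 106, 261 and 179 CPM in SAF1, 163, 186 and 117 CPM in SAF3, and 52.7, 95 and 78.7 CPM in SAF6, and in VAF 133, 49.4 and 93.4, then 14.3, 44.8 and 63.4, then 6.34 and 12.9 CPM. SAF was above VAF in every library at 3 and 6 months, by 1.93 ± 0.501 and 2.97 ± 0.621 in log2, which missed the threshold by edgeR (adjusted p = 0.0539 and 0.159) and passed by DESeq2 (adjusted p = 0.00336 and 2.42e-08). VAF at 6 against 1 month differed by -3.27 ± 0.63 (edgeR, adjusted p = 0.0696, and adjusted p = 1.04e-09 by DESeq2). The 6 month values depended on the labels and on VAF6-3, which had 58.9 CPM: the depot difference was 1.07 ± 0.725 with the groups taken from titles and ages, and 1.53 ± 0.669 with VAF6-3 included, which lies above SAF6-1. COL6A5 had 0.551, 1.79 and 1.1 CPM in SAF1 and 4.5, 7.61 and 5.01 CPM in SAF3, without overlap, and 0.709, 3.27 and 2.42 CPM in VAF1 and 3.48, 17.4 and 10.4 CPM in VAF3, also without overlap. The differences between these ages were 2.31 ± 0.798 and 2.27 ± 0.774 in log2, with adjusted p of 0.466 and 0.161 by edgeR and 0.000125 and 0.029 by DESeq2. From 1 to 6 months the ratio of COL6A5 to COL6A6 per kilobase went from 0.00496 to 0.00653 in SAF1 to 0.0122 to 0.16 in SAF6, and from 0.00506 to 0.063 in VAF1 to 0.397 and 2.64 in VAF6, with 0.0834 in VAF6-3.

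Between ages, most collagen genes had a lower estimate at the older age. From 1 to 3 months 34 of 42 genes were lower in SAF and 28 in VAF, with medians of -0.44 and -0.35 in log2 against -0.02 and 0.01 over all genes tested. From 3 to 6 months 29 and 26 genes were lower, with medians of -0.55 and -0.56, and from 1 to 6 months 37 and 35 genes, with medians of -0.82 and -0.84 (0.01 and -0.03 over all genes). All 11 fibrillar genes were lower at the older age in each SAF comparison, with a median of -1.28 from 1 to 6 months, and 10 of 11 were lower in VAF over the same ages, with a median of -1.15. The SAF estimates at 6 months include SAF6-3, the lowest of all libraries for COL1A1, COL3A1 and the chains of type V. In SAF6-1 and SAF6-2, COL1A1 (10512 and 12527 CPM) lay within the range of SAF3 (9435 to 15868 CPM). COL3A1 (16695 and 22891 CPM) lay below that of SAF3 (23198 to 27176 CPM). The 3 comparisons of a depot share libraries with each other.

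Without overlap between libraries, 2 collagen genes were higher and 4 lower in SAF at 3 than at 1 month (9.97% and 9.06% of all genes tested were), 0 and 9 at 6 against 3 months (6.87% and 8.29%), and 0 and 12 at 6 against 1 month (7.87% and 10.9%). In VAF 3 were higher and 7 lower at 3 than at 1 month (5.79% and 6.83%), 3 and 12 at 6 against 3 months (14% and 12.6%), and 1 and 21 at 6 against 1 month (18.1% and 18.3%). The 12 of SAF at 6 against 1 month included COL3A1, COL4A1, COL4A2 and the 3 chains of type V. By edgeR 0 collagen genes passed in SAF at 3 against 1 month (0.024% of all genes passed), 0 at 6 against 3 months (0.126%) and 1, COL20A1, at 6 against 1 month (0.816%, 0.6% being lower at 6 months). In VAF 1 passed at 3 against 1 month, COL17A1 (1.67%), 0 at 6 against 3 months (0.042%) and 0 at 6 against 1 month (0.09%). In the order given, 4, 5, 15, 11, 9 and 7 of the 42 collagen genes had unadjusted p under 0.05, as did 1285, 1569, 2153, 2403, 3016 and 2162 of the 16664 genes tested. DESeq2 called 5, 3 and 6 in SAF (3.5%, 2.2% and 3.5% of all genes) and 3, 4 and 9 in VAF (3.65%, 3.18% and 7.5%), and edgeR on the compared groups alone called 0 in each.

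COL20A1, a FACIT whose function is little known, was the gene that passed between ages in SAF. It (chr17:62395383-62419054, plus strand) had 21, 17 and 26 counts in SAF1, 2, 1 and 1 in SAF3, and 2, 3 and 0 in SAF6, and in VAF 13, 19 and 17, then 1, 4 and 2, then 3 and 1. The 1 month libraries of both depots were above all later ones, VAF6-3 with 0 counts included. SAF at 6 against 1 month differed by -3.48 ± 0.746 in log2 (edgeR, adjusted p = 0.0431), SAF at 3 against 1 month by -3.79 ± 0.766 (adjusted p = 0.12) and VAF at 3 against 1 month by -2.69 ± 0.715 (adjusted p = 0.0739). These are low counts, and the call at 6 months held when a VAF3 library was left out and was lost when any other library was, with differences from -4.12 to -2.89.

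COL26A1, a collagen first described in developing gonads, was highest at 3 months in both depots. It (chr3:9003126-9164074, plus strand) had 22, 17 and 3 counts in SAF1, 44, 132 and 84 in SAF3, and 2, 3 and 4 in SAF6, and in VAF 35, 17 and 7, then 118, 172 and 54, then 6 and 2. The 3 month libraries were above those of the other ages in both depots, also with the 10 counts of VAF6-3. SAF at 6 against 3 months differed by -4.83 ± 0.913 in log2 (edgeR, adjusted p = 0.0592) and VAF by -4.55 ± 1.06 (adjusted p = 0.0782), and DESeq2 called both (adjusted p = 2.67e-08 and 0.000163). The depots differed by -0.45, -0.21 and -0.49 at the 3 ages (SE 0.717 to 1.09).

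**Figure D5:**
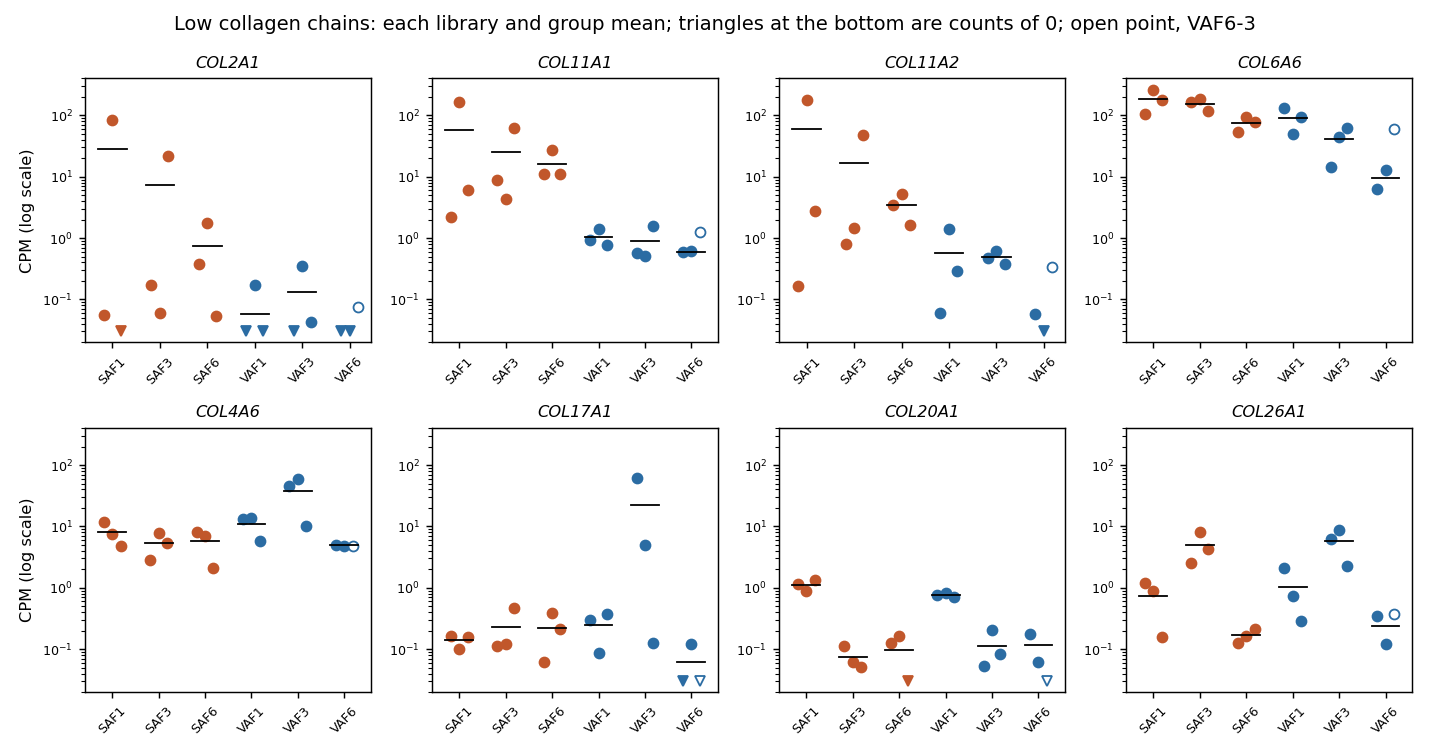
CPM on a log axis (vertical) of 8 collagen chains at low or uneven level in each library of the 6 groups (horizontal), with the group mean as a line, libraries at 0 counts as triangles at the bottom and VAF6-3 as an open symbol outside the mean. COL11A1 is above all VAF libraries in all SAF libraries, COL17A1 is high in VAF3-1 and VAF3-2, COL20A1 is highest at 1 month and COL26A1 at 3 months in both depots.

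The other FACIT genes bind to the surface of fibres. COL14A1, COL12A1 and COL16A1 were the abundant ones, at 262 to 1184, 41.7 to 524 and 62.5 to 372 CPM, and SAF1-2 had the highest level of each. COL12A1 was higher in SAF than in VAF by 1.46 ± 0.484, 1.08 ± 0.481 and 1.75 ± 0.567 in log2 at the 3 ages (edgeR, adjusted p = 0.561, 0.251 and 0.384), and without overlap at 3 and 6 months. VAF6-3, outside the test, had 420 CPM of COL12A1, the second highest of all libraries. COL9A3, a chain of the cartilage FACIT type IX, had 33, 139 and 45 counts in SAF1, 24, 53 and 35 in SAF3 and 8, 6 and 0 in SAF6, and SAF at 6 against 1 month differed by -3.76 ± 1.07 (edgeR, adjusted p = 0.13). It was low in all VAF6 libraries too, at 7, 5 and 7 counts, against 10 to 159 at the younger ages. COL9A3 overlaps TCFL5 on the other strand. COL21A1 was highest in SAF1-2 at 44.6 CPM and lowest in SAF6-3 at 1.38 CPM, and in SAF at 6 against 1 month differed by -2.67 ± 0.669 (edgeR, adjusted p = 0.0853), which DESeq2 called. COL21A1 and COL12A1 were chosen after their values had been seen. The FACIT genes COL9A1, COL9A2 and COL19A1 stayed at or below 1.28, 2.2 and 2.61 CPM in every library.

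COL22A1, a FACIT of tissue junctions, had 3, 0 and 0 counts in VAF3 and 9, 8 and 8 in VAF1, a difference of -2.85 ± 1.31 (edgeR, adjusted p = 0.335). Its highest value was 32 counts in SAF3-2, the library with the highest sum of 3 Schwann cell markers, 349 CPM against 3.75 to 81.5 CPM in the other 17 libraries. The part of nerve in this value was not tested. COL24A1, a minor fibrillar chain, had 6, 66 and 104 counts in VAF1, 38, 10 and 6 in VAF3, and 2 and 1 in VAF6, and VAF at 6 against 1 month differed by -4.71 ± 1.32 (edgeR, adjusted p = 0.171). In SAF it had 21, 56 and 117, then 34, 25 and 16, then 3, 14 and 7 counts, again lowest at 6 months. COL27A1, the other minor fibrillar chain, ran from 12.4 to 68.9 CPM. COL9A3, COL22A1 and COL24A1 are thus described from few counts.

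Of the short chain collagens, COL8A1 and COL8A2 make the network of vessel walls and of the cornea, and COL8A2 ran from 0.488 to 15.4 CPM. COL8A1 had 6.22, 67.2 and 28 CPM in SAF1 and 4.37, 7.65 and 8.07 CPM in VAF1, then 20.1, 22.9 and 13.8 against 9.5, 8.79 and 11.5 CPM at 3 months, and 33.5, 18.3 and 19.4 against 5.58 and 6.53 CPM at 6 months. The depots did not overlap at 3 and 6 months, and the difference was 2.32 ± 0.573 at 1 month and 1.96 ± 0.664 at 6 months (edgeR, adjusted p = 0.379 and 0.414), the latter called by DESeq2. VAF6-3 had 45.5 CPM of COL8A1, above all SAF6 libraries. COL7A1, which forms the anchoring fibrils under epithelia, ran from 5.27 to 26.7 CPM with the highest value in VAF3-2, and COL28A1, known from nerve, from 2.53 to 85.5 CPM with the highest in SAF1-2.

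Whether the depot difference changed with age was tested as an interaction. No collagen gene passed by edgeR between 1 and 3 months or between 3 and 6 months, where 0% of all genes tested did in each, and 4 and 5 collagen genes had unadjusted p under 0.05, as did 943 and 1449 of all genes. DESeq2 called no collagen gene either, and 0.46% and 0.146% of all genes. The smallest adjusted p of the second interaction was 0.509, for COL17A1 and COL4A6. Without VAF3-3, 395 of 16591 genes passed for 3 to 6 months, 4 of them collagen genes (COL4A1, COL4A2, COL4A6 and COL17A1).

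Genes that modify, process and bind collagen were described from 4 lists. Of 18 genes for chain modification and folding (prolyl and lysyl hydroxylases, chaperones), none passed in any comparison by edgeR, with medians from -0.26 to 0.08 in log2, and DESeq2 called none. Of 12 tested genes for propeptide cleavage and crosslinking, LOXL2 and LOXL4, which crosslink collagens through oxidised lysines, were the ones edgeR called. DESeq2 also called LOX between depots at 1 month, PCOLCE2 at 3 months and BMP1 in SAF at 6 against 1 month. LOXL2 had 498, 470 and 613 CPM in SAF1, 299, 185 and 226 CPM in SAF3, and 119, 153 and 69.7 CPM in SAF6, and in VAF 363, 307 and 375, then 69.5, 62.5 and 157, then 92.2 and 121 CPM. The 1 month libraries were above all others in both depots, and LOXL2 fell by 2.21 ± 0.35 in log2 in SAF from 1 to 6 months (edgeR, adjusted p = 0.00969) and by 1.86 ± 0.346 in VAF from 1 to 3 months (adjusted p = 0.0277). LOXL4 fell by 2.35 ± 0.453 in VAF from 1 to 3 months (edgeR, adjusted p = 0.0309), with 1.0, 1.63 and 4.8 CPM in VAF3. With VAF3-3 as the only VAF3 library, the differences at 3 against 1 month were -1.17 for LOXL2 and -1.42 for LOXL4. Both differences in VAF at 3 months were thus smaller without VAF3-1 and VAF3-2, the libraries high in urothelial and smooth muscle markers. LOXL4 had 13.5, 10.4 and 14.1 CPM in VAF1 and 4.82 and 6.41 CPM in VAF6, with 8.96 CPM in VAF6-3. In VAF at 6 against 1 month DESeq2 called LOXL2 and LOXL4 lower, and edgeR called neither.

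Of 8 collagen receptors tested, integrins and discoidin receptors among them, DDR1, a receptor kinase found mainly in epithelia, was the one that passed by edgeR, with a difference SAF minus VAF of -2.44 ± 0.6 in log2 at 3 months (edgeR, adjusted p = 0.0444). Its levels were 113 and 46 CPM in VAF3-1 and VAF3-2 and 5.86 to 22 CPM in the other 16 libraries, and the difference was -0.13 ± 0.502 against VAF3-3 alone. The call of DDR1 held without SAF6-3 and without VAF3-3, and was lost without any other single library. EdgeR on SAF3 and VAF3 alone (adjusted p = 0.255), with VAF6-3 included (adjusted p = 0.0518) or with replicate numbers as a block (adjusted p = 0.158) also did not call DDR1. DESeq2 also called ITGA11 at 3 months. Of 12 matrix proteins that bind fibres, POSTN (periostin, which promotes crosslinking) was the one that passed by edgeR, while DESeq2 also called ASPN, KERA, SPARC, TNXB, OGN and THBS2 in 1 or more comparisons. POSTN had 1720, 2001 and 2218 CPM in SAF3 and 155, 137 and 363 CPM in VAF3, a difference of 3.19 ± 0.484 in log2 (edgeR, adjusted p = 0.0195). This call was lost with edgeR on SAF3 and VAF3 alone (adjusted p = 0.126) and without SAF1-2 and SAF3-3 (adjusted p = 0.0883). Leaving out SAF3-2, SAF3-3 or VAF3-1 singly also ended it (edgeR, adjusted p = 0.0945, 0.0989 and 0.0747), while it held without any other single library. Against VAF3-3 alone the difference was 2.465. At 6 months POSTN had 993, 1438 and 1213 against 65.1 and 46.1 CPM, a difference of 4.44 ± 0.613 (edgeR, adjusted p = 0.0438). This 6 month call held without VAF1-1, VAF1-2 or any single VAF3 library, and was lost without VAF1-3 or any single SAF library. Without VAF6-1 or VAF6-2, VAF6 is 1 library. The call was also lost with edgeR on SAF6 and VAF6 alone (adjusted p = 0.154) and without SAF1-2 and SAF3-3 (adjusted p = 0.126). VAF6-3 had 239 CPM of POSTN, and the 6 month difference was 3.38 ± 0.625 with it included (edgeR, adjusted p = 0.0965), 3.09 ± 0.693 with groups by title and age (adjusted p = 0.191) and 4.43 ± 0.674 when replicate numbers were fitted as a block (adjusted p = 0.356), none of which passed. In VAF, POSTN fell by 2.32 ± 0.467 from 1 to 3 months (edgeR, adjusted p = 0.0327) and by 4.29 ± 0.608 from 1 to 6 months (adjusted p = 0.0178), from 1862, 436 and 957 CPM at 1 month. With VAF3-3 as the only VAF3 library, its difference at 3 against 1 month was -1.60. Without VAF1-3, or with edgeR on VAF1 and VAF3 alone, no gene of the whole table passed in VAF at 3 against 1 month, so LOXL2, LOXL4 and POSTN lost their calls there too. POSTN at 6 against 1 month in VAF was -3.22 ± 0.62 with VAF6-3 included (edgeR, adjusted p = 0.0552) and -2.93 ± 0.687 with groups by title and age (adjusted p = 0.145).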

How the data were processed

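Total RNA of fat was sequenced in 18 libraries (TruSeq kit, Illumina HiSeq X, paired ends). The authors trimmed reads with fastp, aligned them with HISAT2 (2.0.4 in the submitters' processing notes) to Sscrofa11.1 and tallied reads over genes with HTSeq-count. The deposited values are the resulting raw counts. The strand setting and annotation release are not given in the sources used here. Trimming removed more bases from all SAF libraries but SAF6-3 than from VAF libraries, which cannot be told apart from depot at 1 and 3 months.

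Groups follow the library names. COL6A1 was not analysed here. All groups were fitted together in edgeR 4.0.16 (R 4.3.3; TMM, filterByExpr, quasi-likelihood test, Benjamini-Hochberg adjustment over 16664 genes, 17 libraries, biological coefficient of variation 0.36). Genes were called at adjusted p under 0.05 and above 1.5-fold, and interactions by adjusted p alone. DESeq2 1.42.0 on the compared groups was an alternative. The members, lists and the choice of 1 fit, where an earlier analysis had fitted pairs of groups, were made with earlier results of these data known. Both tests were tested on simulated data. Python 3.11.15, pandas 2.3.3 and numpy 2.4.6 made the tables. Exon lengths and sequences are from RefSeq, in which all 43 genes were found.

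Values per library are given for the chains of types I, III, IV (alpha 1 and 2), V and VI (alpha 2 and 3), for up to 3 called members per direction and comparison, for the member with the largest difference without overlap in each comparison, and for members called in an interaction. Other genes named were chosen after their values were seen. Deviations from the group means of same-numbered SAF and VAF libraries correlated at -0.201, -0.0303 and 0.329 at 1 month, 0.12, 0.479 and -0.013 at 3 months, and 0.671, 0.52 and 0.702 at 6 months, so numbers were taken to pair samples at 6 months alone. This pairing is an assumption, since the labels do not give it and the correlations of an age are not independent. SAF6-3 and VAF6-3 also both stood apart in the share of the 10 most abundant genes (6.5% and 5.19%), whose part in the correlations was not tested.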

Additional observations from a re-analysis of the deposited data

Results flagged for a closer look

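VAF6-3 was outside every comparison of the main fit, and collagen genes took 2.94% of its counts, where they took 2.82% and 2.28% in the other VAF6 libraries.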

How the results depend on the processing

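The log2 differences followed under the alternatives were those of genes called or largest without overlap, and not those of the abundant chains. They were picked for their size, so a reversal was unlikely from the start. None reversed under any alternative in which the gene was tested. Of the values, 252 stayed on their side of the threshold, 15 passed it and 50 no longer passed. The 252 include genes called neither in the main fit nor in the alternative. The number of collagen genes called moved more. At 3 months between depots (2 called) it was 0 with edgeR on the compared groups alone, 9 with DESeq2, 1 with VAF6-3 included, 6 with groups by title and age, and 0 without SAF1-2 and SAF3-3 or without VAF3-1 and VAF3-2, 2 settings chosen after seeing the data. Leaving out single libraries gave 0 to 14, with 0 without any SAF3 library, VAF3-1 or VAF3-2, and 14 without VAF3-3. At 6 months (0 called) DESeq2 gave 5. In SAF at 3 against 1 month (0) DESeq2 gave 5 and single libraries 0 to 1. In SAF at 6 against 3 months (0) DESeq2 gave 3, and no filter on low counts or leaving out VAF3-1 and VAF3-2 gave 1, with single libraries 0 to 1. In SAF at 6 against 1 month (1) DESeq2 gave 6 and leaving out VAF3-1 and VAF3-2 gave 2. The compared groups alone, no filter, VAF6-3 included, groups by title, and leaving out SAF1-2 and SAF3-3 each gave 0, and single libraries 0 to 1. In VAF at 3 against 1 month (1) DESeq2 gave 3, the compared groups alone, VAF6-3 included and either pair of libraries left out gave 0, and single libraries 0 to 9. In VAF at 6 against 3 months (0) DESeq2 gave 4, VAF6-3 included 2, groups by title 3 and single libraries 0 to 8. In VAF at 6 against 1 month (0) DESeq2 gave 9, no filter or leaving out VAF3-1 and VAF3-2 gave 1, and single libraries 0 to 1. The change of the depot difference from 3 to 6 months (0) gave 0 to 4. The highest numbers, 14, 9, 8 and 4, were those without VAF3-3, when 2948, 1454, 2146 and 395 of 16591 genes passed over the whole table, against 455, 278, 7 and 0 of 16664 with it, and without a SAF3 library 0 to 9 genes passed between depots at 3 months. VAF3-3 is a 6 month library by its title, and the cause was not tested. Without VAF3-1 and VAF3-2, VAF3 is 1 library.

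With the replicate number as a block, 1 collagen gene, COL4A5, was called between depots at 3 months, when 232 of all 16664 genes were. In SAF at 6 against 3 months 1 was called (COL26A1), with 31 of all genes. In SAF at 6 and in VAF at 3 against 1 month 0 were called, with 142 and 85 of all genes. At 6 months between depots, the age at which numbers were taken to pair the samples, it called 0 collagen genes, as without it. Of all genes it called 0 against 2, ending the call of POSTN.

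Without the 10 most abundant genes, which include COL3A1 and COL1A1, the mean collagen share was 3.75%, 2.81% and 1.95% in SAF1, SAF3 and SAF6 and 2.58%, 1.71% and 1.54% in VAF1, VAF3 and VAF6. Low counts limit COL2A1, COL17A1, COL20A1, COL22A1 and COL24A1.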
